A study of Bos taurus with 12 samples.

Results

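Bovine 8-cell embryos made by nuclear transfer (SCNT) or fertilisation (IVF) held under 1 FPKM of each of 121 transcripts that stood at 100 FPKM or more in fetal fibroblasts. FPKM counts sequenced fragments relative to transcript length and library size, so it is a level per length. The 121 were chosen by these levels out of the 22445 loci in the deposited table, with 3 further IDs left out by rule, of which 1 (ENSBTAG00000021466.5) would have met the levels. The fibroblast, SCNT and IVF values below therefore describe the choice and are not tested, while the column of SCNT embryos with KDM5B took no part in it. Of the members, 118 carry Ensembl IDs and 3 carry the authors' own locus IDs.

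RNA was sequenced in 4 groups of Holstein cattle samples, with 3 libraries a group per the labels. The embryo groups were pools of 8 embryos at the 8-cell stage: somatic cell nuclear transfer (SCNT) embryos overexpressing KDM5B, SCNT embryos without it, and embryos from in vitro fertilisation (IVF). The last group was fetal fibroblasts in culture, whose libraries the labels' group field calls SCNT embryos although titles, source and cell type name fibroblasts. The labels do not say which cell line or how many animals gave the cells and embryos, nor how KDM5B was delivered, and the series' design text puts fibroblasts on another sequencing instrument than the embryos, so that the instrument cannot be told apart from the cell type. The table holds 1 value per group, the authors' mean of 3 libraries, so no SD or test is possible and each difference below is one between means with no replicate check.

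A fibroblast is a connective tissue cell that secretes much of the extracellular matrix and carries a contractile actin cytoskeleton, and its transcripts for these products are among its most abundant. In SCNT, a body cell is fused with an egg from which the nucleus was removed, and the egg's cytoplasm has to switch off the donor's programme and start that of an embryo. In cattle the main activation of the embryo's own genome falls around the 8-cell stage. KDM5B is a histone demethylase that takes methylation off histone H3 at lysine 4, where it accompanies transcription. The files and the gene table used here do not pair the IDs with names, and 0 of the 121 members could be matched, so no gene names or roles are given and the members' identity as matrix or cytoskeletal genes was not checked. For the same reason the level of KDM5B and of fibroblast and other cell type markers was not analysed here.

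A minority of the transcripts abundant in fibroblasts were low in both SCNT and IVF embryos. Of 767 loci at 100 FPKM or more in fibroblasts, 15.8% were members. The 767 and the counts drawn from them are without the 3 IDs left out by rule. Of 21675 loci under 100 FPKM in fibroblasts, 36.9% were under 1 FPKM in both embryo groups. IVF embryos held under 1 FPKM of 159 of the 767, and 76.1% of those 159 (the 121 members) were also under 1 FPKM in SCNT embryos. Among 9702 loci that were likewise under 1 FPKM in IVF embryos but under 100 in fibroblasts, 82.4% were under 1 FPKM in SCNT embryos. A further 50 of the 767 were under 1 FPKM in SCNT embryos and at 1 or more in IVF embryos, and 558 were at 1 or more in both.

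As a group, the members made up at most 0.00316% of all FPKM in an embryo group, against 8.06% in fibroblasts. Their summed level was 28.0 FPKM in SCNT embryos with KDM5B, 16.7 in SCNT embryos and 20.4 in IVF embryos, against 42615 FPKM in fibroblasts. This is 0.0657%, 0.0392% and 0.0478% of the fibroblast sum in the 3 embryo groups, in the same order. The SCNT sum was thus below the IVF sum (SCNT minus IVF, -3.68 FPKM), and the highest of the 3 was that of SCNT embryos with KDM5B, the one embryo column that the choice does not hold under 1 FPKM, which favours a higher sum there. Fibroblast levels were unevenly spread over the members: the lowest was 100.5 FPKM, the median 179.5 and the highest 7070.5, and the top 8 members made up 45.3% of the fibroblast sum.

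**Figure D1:**
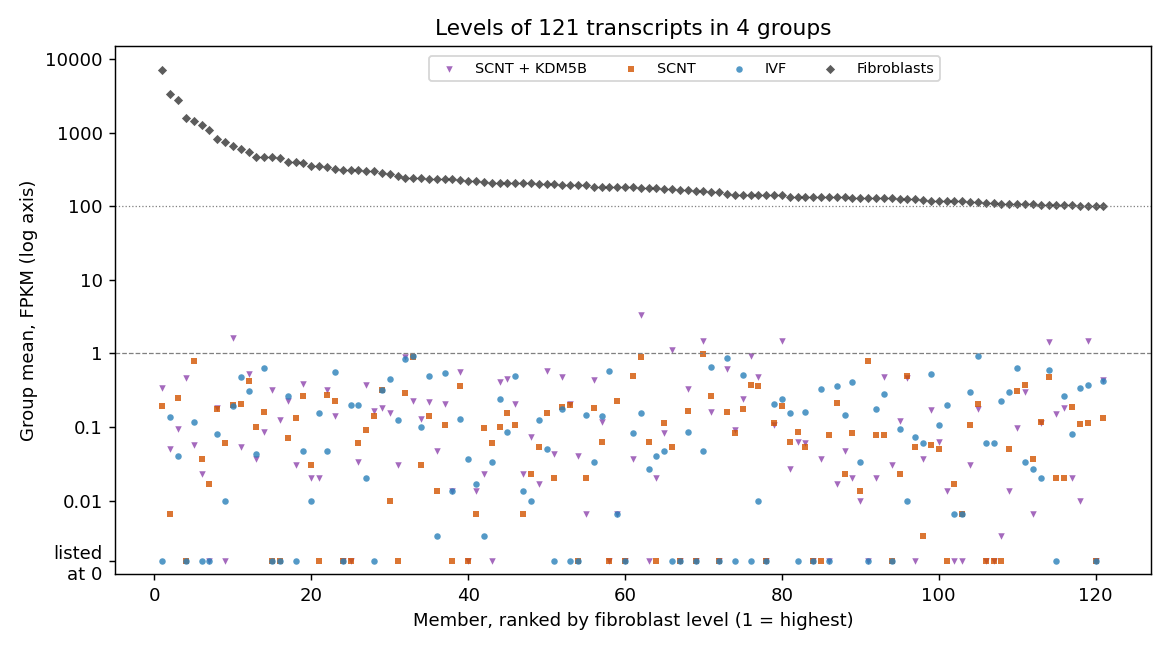
Group means in FPKM (log axis, with values listed at 0 on a row of their own) for the 121 members, ranked by fibroblast level; triangles are SCNT embryos with KDM5B, squares SCNT embryos, circles IVF embryos and diamonds fibroblasts. Fibroblast values lie at or above the dotted line at 100 FPKM and SCNT and IVF values under the dashed line at 1 FPKM by choice, and 7 values of SCNT embryos with KDM5B lie above the dashed line.

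Of the 12 members highest in fibroblasts, 11 were under 1 FPKM in every embryo group, and ENSBTAG00000009844.3, described with SCNT embryos with KDM5B, reached 1.6 FPKM there. ENSBTAG00000017312.3, the highest member, was listed at 0.343 FPKM in SCNT embryos with KDM5B, 0.19 in SCNT embryos and 0 in IVF embryos, against 7070.5 FPKM in fibroblasts. ENSBTAG00000000575.5 stood at 0.05, 0.00667 and 0.137 FPKM in those embryo groups, against 3342 in fibroblasts. ENSBTAG00000019267.3 stood at 0.0933, 0.247 and 0.04 FPKM, against 2799 in fibroblasts. The embryo group with the highest value thus differed among these 3 members: it was SCNT with KDM5B for the first, IVF for the second and SCNT for ENSBTAG00000019267.3.

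The next members by fibroblast level showed the same scatter. ENSBTAG00000048029.1 was listed at 0.46 FPKM in SCNT embryos with KDM5B and at 0 in SCNT and IVF embryos, against 1557 in fibroblasts. ENSBTAG00000007196.2 stood at 0.0567 FPKM in SCNT embryos with KDM5B, 0.777 in SCNT embryos and 0.117 in IVF embryos, against 1423 in fibroblasts. ENSBTAG00000011802.5 stood at 0.0233, 0.0367 and 0 FPKM in the 3 embryo groups, against 1252 in fibroblasts. Even the highest of these embryo values, that of ENSBTAG00000007196.2 in SCNT embryos, was 0.0546% of the fibroblast level. ENSBTAG00000019269.5 was above 0 in no embryo group but SCNT, at 0.0167 FPKM, with fibroblasts at 1067. Of the other members among the 12, ENSBTAG00000014824.5 stood at 0.18 FPKM in SCNT embryos with KDM5B, 0.173 in SCNT embryos and 0.08 in IVF embryos, against 810.5 in fibroblasts. Besides ENSBTAG00000009844.3, the remaining 3, ENSBTAG00000001027.3, ENSBTAG00000048210.1 and ENSBTAG00000020056.5, held at most 0.517 FPKM in an embryo group, against 550.0 to 739 in fibroblasts.

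With each value read as a mean of 3 libraries, no single library can lie above 3 times the mean. SCNT and IVF means under 1 FPKM therefore hold no library at 3 FPKM or more for any member. For ENSBTAG00000017312.3 the bound was 1.03 FPKM in SCNT embryos with KDM5B and 0.57 in SCNT embryos. How a mean divides over its libraries cannot be read from the table, so a low mean in embryos can be a low level in all 3 pools or a higher one in 1 of them. In pools of whole embryos, fewer cells with a transcript and less of it per cell cannot be told apart.

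Over all 121 members, the residual levels of the 3 embryo groups were close in their medians. The median was 0.06 FPKM in SCNT embryos with KDM5B (lower and upper quartile 0.0133 and 0.223), 0.0767 in SCNT embryos (0.01 and 0.187) and 0.0733 in IVF embryos (0.00667 and 0.237). Levels under 0.1 FPKM were held by 69 members in SCNT embryos with KDM5B, 68 in SCNT embryos and 67 in IVF embryos, and 36 members were under 0.1 FPKM in all 3. At the upper end, 13 members reached 0.5 FPKM in SCNT embryos with KDM5B, 7 in SCNT embryos and 14 in IVF embryos. The highest value was 3.33 FPKM in SCNT embryos with KDM5B, 0.983 in SCNT embryos and 0.93 in IVF embryos, the last 2 being limited by the choice.

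A value of exactly 0 was common in each embryo group. In SCNT embryos with KDM5B 22 members (18.2%) were listed at 0, in SCNT embryos 25 (20.7%) and in IVF embryos 27 (22.3%). Over all loci of the table the shares were 9.58%, 15.3% and 12.1%. Over the 7991 loci that were equally under 1 FPKM in SCNT and IVF embryos but under 100 in fibroblasts they were 25.2%, 39.5% and 31.2%. The members were thus listed at 0 more often than loci at large and less often than the 7991 other loci of low embryo level. Among the 1388 of these at 1 to under 10 FPKM in fibroblasts, the shares were 18.6%, 30.1% and 22.0%. Among the 889 at 10 to under 100 FPKM they were 13.4%, 21.7% and 18.1%. Against the 889, the members' share was higher in SCNT embryos with KDM5B and in IVF embryos, and lower in SCNT embryos. How the members compare thus depends on the fibroblast level of the other loci. The IVF and SCNT shares depend on columns the choice used, and no test of the difference was possible. The read depth is unknown, so 0 says only how a gene is listed.

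The zeros of the 3 embryo groups fell on partly different members. At least 1 embryo group was at 0 for 45 members, and 76 members were above 0 in all 3. Only 8 members (6.61%) were listed at 0 in all 3 embryo groups, against 3.13% of all loci and 8.70% of the other loci of low embryo level. Their fibroblast levels ran from 101 to 312 FPKM, the highest being ENSBTAG00000022396.4, which is named here after its values were seen. IVF embryos were the only embryo group at 0 for 11 members, SCNT embryos for 7 and SCNT embryos with KDM5B for 6. Of the 13 members listed at 0 in both SCNT and IVF embryos, 5 were above 0 in SCNT embryos with KDM5B. Another 5 members were at 0 in both clone groups and above 0 in IVF embryos. Except for members at 0 in all 3 groups, the shares of these patterns among other loci are not given here. The patterns are therefore not read as particular to the members. The 3 members with the authors' own IDs were all listed at 0 in SCNT embryos with KDM5B, had at most 0.06 FPKM in SCNT embryos and 0.2 in IVF embryos, and held 117 to 312 FPKM in fibroblasts.

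The level in SCNT embryos beyond that in IVF embryos, which received no fibroblast nucleus, was then set against the fibroblast level for each member, as (SCNT minus IVF) / fibroblasts. The median over the 121 members was 0%, with quartiles of -0.0668% and 0.0200%. SCNT embryos were higher than IVF embryos for 49 members, lower for 58 and equal for 14. The value lay between -0.646% and 0.60% for every member, and beyond 0.1% in either direction for 38. These limits follow in part from the choice, which keeps the difference within 1 FPKM and hence within 1% of any fibroblast level of 100 FPKM or more. The share of members higher in SCNT than in IVF embryos was 40.5%, against 32.1% of the other loci of low embryo level. More of those other loci were listed at 0, 39.5% in SCNT and 31.2% in IVF embryos, against 20.7% and 22.3% of members. Their shares of lower and equal values are not given here, so the gap is not read as an excess in SCNT embryos.

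The largest positive values belonged to members of lower fibroblast level, as the limits of the choice require, since at 1000 FPKM or more in fibroblasts the value cannot pass 0.1%. ENSBTAG00000037600.1 was listed at 0 in both SCNT embryos with KDM5B and IVF embryos and at 0.783 FPKM in SCNT embryos, against 130.5 in fibroblasts, a difference from IVF of 0.60% of the fibroblast level. ENSBTAG00000021467.5 stood at 1.47 FPKM in SCNT embryos with KDM5B, 0.983 in SCNT embryos and 0.0467 in IVF embryos, against 158 in fibroblasts, which gives 0.592%. For ENSBTAG00000005182.5 the value was 0.423% and for ENSBTAG00000019150.5 it was 0.390%. These 4 members did not share a pattern across the clone groups, since the first was listed at 0 with KDM5B while ENSBTAG00000021467.5 and ENSBTAG00000005182.5 were higher with KDM5B than without.

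The most negative values were of like size. ENSBTAG00000030805.3 stood at 0.177 FPKM in SCNT embryos with KDM5B, 0.203 in SCNT embryos and 0.93 in IVF embryos, against 112 in fibroblasts, a difference of -0.646%. ENSBTAG00000012482.5 stood at 0.617, 0.16 and 0.877 FPKM in those embryo groups, against 144 in fibroblasts, which gives -0.497%. ENSBTAG00000012247.4 and ENSBTAG00000032591.2 followed at -0.387% and -0.322%. The negative end thus reached about as far from 0 as the positive end on the deposited scale. With columns rescaled to TPM the 4 positive values were lower, at 0.358%, 0.351%, 0.245% and 0.232%. The value of ENSBTAG00000030805.3 was also smaller in size on that scale, at -0.456%. With columns centred on loci at 1 FPKM or more in all groups, ENSBTAG00000037600.1 stood at 0.504% and ENSBTAG00000030805.3 at -0.481%.

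**Figure D2:**
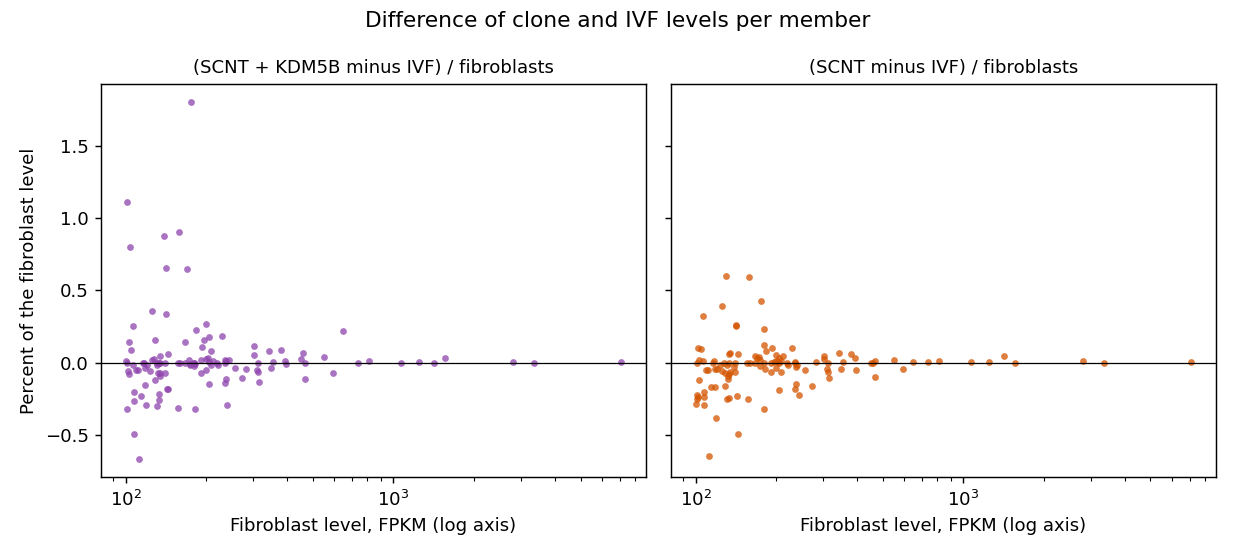
Difference between clone and IVF levels as a percent of the fibroblast level (vertical axis) against the fibroblast level in FPKM (log axis), 1 point per member, for SCNT embryos with KDM5B on the left and SCNT embryos on the right. Points spread to both sides of 0, from -0.646% to 0.60% for SCNT embryos and from -0.670% to 1.81% with KDM5B, and lie within 0.05% of 0 for the 7 members at 1000 FPKM or more in fibroblasts.

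The levels in the clone groups showed no steady order with the level in fibroblasts, while the IVF median rose from the highest to the lowest range of fibroblast level. The 7 members at 1000 FPKM or more in fibroblasts had median levels of 0.0567 FPKM in SCNT embryos with KDM5B, 0.0367 in SCNT embryos and 0 in IVF embryos. The 21 members from 300 to under 1000 FPKM had medians of 0.123, 0.1 and 0.0467 FPKM in the same groups, and the 93 members under 300 had 0.0467, 0.0633 and 0.0833. SCNT embryos were higher than IVF embryos for 5 of the first 7 members and lower for 1, with a median difference of 0.00269% of the fibroblast level. They were higher for 11 and lower for 7 of the 21, with a median difference of 0.00103%. Of the 93 they were higher for 33 and lower for 50, with a median difference of -0.0153%. The median difference thus fell from the highest to the lowest range, and was small throughout. Spearman's rho with the fibroblast level across the 121 members was 0.15 for SCNT embryos with KDM5B, 0.07 for SCNT embryos and -0.11 for IVF embryos, a description over genes of low values that share libraries.

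SCNT embryos with KDM5B, the column outside the choice, also held little of the members. Of the 121 members 114 (94.2%) were under 1 FPKM there, and 7 (5.79%) were at 1 FPKM or more. Of the other loci of low embryo level, 6.22% were at 1 FPKM or more in SCNT embryos with KDM5B, which is near the share of members. With Ensembl IDs alone the members' share was 5.93%. For the other Ensembl loci of low embryo level it was 1.83% where fibroblasts were at 0 and 1.97% above 0 to under 1. It was 4.53% from 1 to under 10 FPKM in fibroblasts and 8.11% from 10 to under 100. How near the members lie to the background thus depends on the loci compared. Set against IVF embryos and scaled to fibroblasts, SCNT embryos with KDM5B had a median of 0%, with quartiles of -0.0642% and 0.0311%. They were higher than IVF embryos for 50 members, lower for 58 and equal for 13. Higher values made up 42.5% of the other loci of low embryo level in that comparison, and 41.3% of the members.

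The 7 members above the limit, which the choice leaves free in this column alone, carried much of its sum. They stood at 1.1 to 3.33 FPKM in SCNT embryos with KDM5B, and together made 42.5% of the members' sum there. Without them the sums of the other members were 16.1 FPKM in SCNT embryos with KDM5B, 13.8 in SCNT embryos and 18.8 in IVF embryos. The order of the groups thus changed, and the IVF sum was then the highest. Leaving out members by their level with KDM5B lowers that column's sum most, so the change of order follows in part from how the 7 were picked.

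ENSBTAG00000005182.5 had the highest value, 3.33 FPKM in SCNT embryos with KDM5B, 0.9 in SCNT embryos and 0.157 in IVF embryos, against 176 in fibroblasts. Its level with KDM5B was 1.89% of that in fibroblasts, the largest share of any member in any embryo group, and no library can be above 10 FPKM. ENSBTAG00000009844.3 stood at 1.60 FPKM in SCNT embryos with KDM5B, 0.2 in SCNT embryos and 0.193 in IVF embryos, against 647 in fibroblasts. ENSBTAG00000000342.5 stood at 1.49, 0.113 and 0.37 FPKM in those embryo groups, against 101 in fibroblasts. That the 7 were higher with KDM5B than in the other embryo groups follows from the limits that chose them.

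The remaining members of the 7 were smaller in size. ENSBTAG00000009513.5 stood at 1.46 FPKM in SCNT embryos with KDM5B, 0.19 in SCNT embryos and 0.237 in IVF embryos, against 139.5 in fibroblasts. ENSBTAG00000002391.4 stood at 1.43, 0.48 and 0.603 FPKM in those embryo groups, against 103 in fibroblasts. ENSBTAG00000021467.5, given above, and ENSBTAG00000012212.4, at 1.1 FPKM with KDM5B and named as the last of the 7 after its values were seen, complete the set. SCNT embryos without KDM5B were higher than IVF embryos for 4 of the 7 and lower for 3.

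The clone groups were then compared with each other. SCNT embryos with KDM5B were higher than SCNT embryos for 63 members, lower for 45 and equal for 13. Higher values thus made up 52.1% of members, against 60.3% of all loci and 54.7% of the other loci of low embryo level. For the latter the share was 53.1% where fibroblasts were at 0 and 50.9% above 0 to under 1 FPKM. It was 59.2% from 1 to under 10 FPKM in fibroblasts and 65.6% from 10 to under 100. How the members compare thus depends on the fibroblast level of the other loci. On the log2(FPKM + 1) scale 4 members (3.31%) were at least 2-fold higher with KDM5B, against 4.27% of all loci. Such a rise needs at least 1 FPKM with KDM5B, which 7 members (5.79%) and 6.22% of the other loci of low embryo level reached. The share of those other loci that were 2-fold higher is not given here. No member was 2-fold lower, against 1.19% of all loci. A level under 1 FPKM in SCNT embryos leaves less than 2-fold of room downwards on this scale, so the absence of lower members follows from the choice. The log2 differences of the 4 were 1.19 for ENSBTAG00000005182.5, 1.16 for ENSBTAG00000000342.5, 1.12 for ENSBTAG00000009844.3 and 1.05 for ENSBTAG00000009513.5.

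Lower values with KDM5B were found among the members highest in SCNT embryos. ENSBTAG00000015426.4 stood at 0.223 FPKM in SCNT embryos with KDM5B and 0.883 in SCNT embryos, while IVF embryos held 0.92 and fibroblasts 240. ENSBTAG00000007196.2 and ENSBTAG00000037600.1, given above, were also lower with KDM5B. ENSBTAG00000019150.5 stood at 0.457 FPKM with KDM5B, 0.5 without it and 0.01 in IVF embryos, with fibroblasts at 126. Of the 6 members highest in SCNT embryos, 4 were thus lower with KDM5B, which a choice by the highest SCNT value favours.

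**Figure D3:**
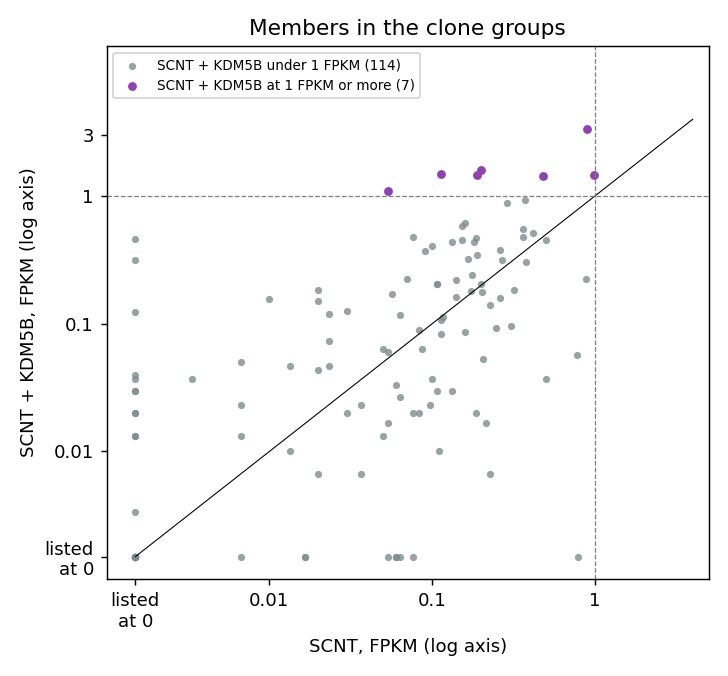
Level of each member in SCNT embryos with KDM5B (vertical) against SCNT embryos (horizontal), both in FPKM on log axes with values listed at 0 on rows of their own; the diagonal marks equal levels and the dashed lines 1 FPKM. The 7 members at 1 FPKM or more with KDM5B are in purple, and the other 114 scatter to both sides of the diagonal.

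Across members, the clone groups ranked the residual levels more alike than either ranked them like IVF embryos. Spearman's rho over the 121 members was 0.61 between SCNT embryos with and without KDM5B. It was 0.34 between SCNT and IVF embryos and 0.32 between SCNT embryos with KDM5B and IVF embryos. These are descriptions across genes, which share libraries and many of which are at or near 0. IVF embryos had the highest of the 3 embryo values for 47 members, SCNT embryos with KDM5B for 40 and SCNT embryos for 24. Both clone groups were higher than IVF embryos for 35 members and both lower for 47. The same counts and rho values over other loci are not given here, so they are not read as particular to the members.

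The members were last set beside loci with the same fibroblast minimum that SCNT embryos did hold. Of the 159 loci at 100 FPKM or more in fibroblasts and under 1 in IVF embryos, 38 were at 1 FPKM or more in SCNT embryos, 9 of them at 10 or more. The members' medians were 0.06 FPKM in SCNT embryos with KDM5B, 0.0767 in SCNT embryos and 0.0733 in IVF embryos, against 179.5 in fibroblasts. Those of the 38 loci were 4.54, 3.52 and 0.41 FPKM in the same embryo groups, against 166 in fibroblasts. The fibroblast medians of both sets were thus close, though the upper quartile was 256 FPKM for the members and 456 for the 38 loci, and the IVF median was lower in the members. The SCNT medians differ by the choice, which split the sets at 1 FPKM. SCNT embryos with KDM5B, which did not enter the choice, held 1 FPKM or more of 7 of the 121 members and of 34 of these 38 loci. Loci at 10 to under 100 FPKM in fibroblasts and under 1 in IVF embryos were alike in this. Of these 1148 loci, 259 were at 1 FPKM or more in SCNT embryos and 309 with KDM5B. Only 71 of the 309 were under 1 FPKM in SCNT embryos. The 34 of 38 is therefore not read as particular to loci abundant in fibroblasts.

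Loci under 1 FPKM in IVF embryos were also followed over the whole range of fibroblast levels. SCNT embryos held 1 FPKM or more of 13.8% of such loci that were listed at 0 in fibroblasts. The share was 17.9% for those above 0 and under 1 FPKM in fibroblasts, 20.4% from 1 to under 10, 22.6% from 10 to under 100, and 23.9% at 100 or more, the bin that holds the members. In SCNT embryos with KDM5B the shares over the same bins were 15.1%, 19.8%, 22.8%, 26.9% and 25.8%. With Ensembl IDs alone, an alternative set chosen after seeing the data, the lowest bin had 7.23% in SCNT embryos and the highest 23.9%. Transcript length and type may differ between bins, and their part in these shares was not tested.

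**Figure D4:**
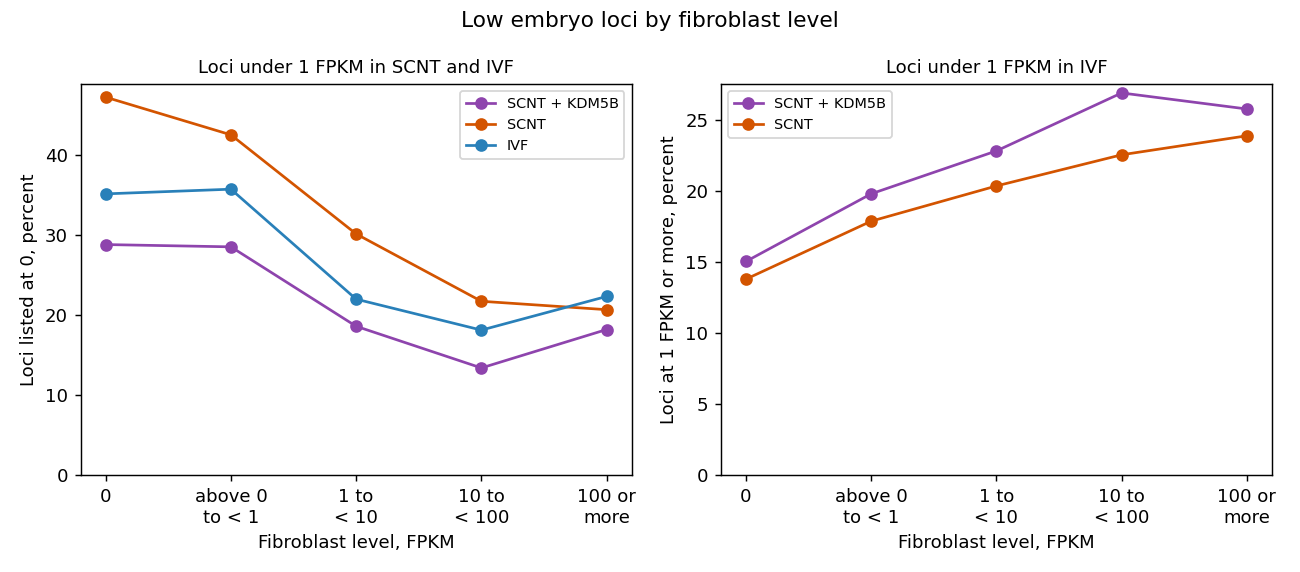
Left, percent of loci listed at 0 in each embryo group, among loci under 1 FPKM in SCNT and IVF embryos; right, percent at 1 FPKM or more in the clone groups, among loci under 1 FPKM in IVF embryos; both by bins of fibroblast level in FPKM. In the bin at 100 FPKM or more, which on the left is the 121 members, 18.2% to 22.3% were listed at 0, and on the right 25.8% of 159 loci reached 1 FPKM with KDM5B and 23.9% without.

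The levels that bound the choice cut through a continuous range. The members nearest the fibroblast limit were ENSBTAG00000019569.4 at 100.5 FPKM and ENSBTAG00000044073.2 at 101 FPKM, and the nearest loci outside it ENSBTAG00000017382.5 at 99.5 and ENSBTAG00000039556.2 at 99.4. By SCNT level, ENSBTAG00000021467.5 lay just inside at 0.983 FPKM, and ENSBTAG00000013468.5 just outside at 1.17 FPKM (one of the 3 IDs left out by rule, ENSBTAG00000013472.5, stood at 1.01). By IVF level, ENSBTAG00000030805.3 lay just inside at 0.93 FPKM, and ENSBTAG00000012847.5 and ENSBTAG00000039888.2 just outside, both at 1.04 FPKM. Rescaling each column to the same sum, which raised fibroblast values most, brought 199 loci within the levels, 115 of them members.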

How the data were processed

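The authors deposited a table of FPKM values that has a column for each group. In all 4 columns 100% of the members' values are whole multiples of 0.01 divided by 3 (tolerance 0.001 on the value times 300), from which the columns are read as means of 3 libraries. Per the submitters' processing notes, the tools included RSEM 1.2.12, Bowtie2 2.2.5, StringTie 1.0.4, HISAT 0.1.6 and bcl2fastq 2.16, on build UMD3.1, with no roles given. The annotation and any filters were not given in the sources used here. Per the labels' protocols, embryos were lysed directly and their cDNA amplified, which can shift or lose low transcripts. Depth and its precision are unknown.

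Groups follow the sample titles. Members and lists were chosen with earlier results of these data known. Members were counted in each column, levels were summed, and differences were scaled to fibroblasts. No p-value was computed, and no log2 difference (pseudocount 1) rests on replicates. The members named are the 12 highest in fibroblasts (3 of them given as a range), the 6 highest in each clone group, the 4 at either end of (SCNT minus IVF) / fibroblasts and those nearest the limits. The 8 gene lists and the marker lists planned need symbols. The gene table, of assembly ARS-UCD2.0, has 37063 entries and 0 Ensembl IDs, so 0 members were matched and no list gave a result. Alternatives were other levels, Ensembl IDs only, TPM (each column rescaled to a sum of 1000000) and columns centred on 7448 loci at 1 FPKM or more in all groups. The counting code was tested on simulated data. Python 3.11.15, numpy 2.4.6, pandas 2.3.3, scipy 1.17.1 and matplotlib 3.10.9 were used.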

Additional observations from a re-analysis of the deposited data

How the results depend on the processing

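Counts moved as other levels or scales admitted other loci, and some shares of members moved as well. Of 63 recomputed values, 39 stayed at the same median or within 1.5 times of the reported count. With fibroblasts at 50 FPKM or more there were 225 members, with 41, 52 and 52 listed at 0 in SCNT with KDM5B, SCNT and IVF embryos, 14 at 1 FPKM or more with KDM5B and 122 higher with KDM5B than without. At 200 FPKM or more these were 48, then 6, 9 and 9, then 1 and 29. As TPM they were 199, then 39, 47 and 48, then 12 and 106, with a median (SCNT minus IVF) / fibroblasts of -0.00193%. Under 0.5 FPKM in SCNT and IVF embryos, 4 of 101 members (3.96%) were at 1 FPKM or more with KDM5B. Under 2 FPKM 28 of 164 (17.1%) were, with a median of -0.00422%. With the SCNT limit dropped 41 of 159 (25.8%) were, with a median of 0.00656%. That share was 5.79% for the 121 members and 2.08% at 200 FPKM or more in fibroblasts. Centring moved SCNT with KDM5B against SCNT by -0.22 and SCNT against IVF by 0.13 (log2), and TPM moved SCNT against IVF by -0.19. Over the 121 members more stayed lower than higher in SCNT than in IVF embryos on both scales (57 and 51 centred, 62 and 46 as TPM). Members higher with KDM5B than without still outnumbered lower ones, 58 and 50 centred and 63 and 45 as TPM. No paired analysis was possible because each column is a mean without replicate values, and no replicate could be left out. Unknown depth limits every value under 1 FPKM.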
